A study of Mus musculus with 16 samples.

Results

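Connexins are the proteins of gap junction channels, and their genes were followed here in sorted mouse cardiomyocytes (CMs). The members were all microarray probes whose gene name was *Gja1*, *Gja3*, *Gja4*, *Gja5*, *Gjb2*, *Gjc1* or *Gjd3*, which gave 9 probes of 55681 and 7 genes of 34821. *Gja5* had 3 probes and each other gene had 1. The study asked whether the surface level of integrin alpha 6 (ITGA6, CD49f) separates atrial from ventricular CMs, and profiled fractions with low and high ITGA6 on 1-color microarrays. All hearts came from wild-type CD1 mice. At embryonic day 15.5 (E15.5), live ErbB-2+ cells were sorted into CD49f low cells, called EL, and CD49f high cells, called EH. At day 2 after birth (P2), non-myocytes were first depleted, and live cells were then sorted by CD49f alone into low cells, called PL, and high cells, called PH. Each E15.5 sample was a pool of 20 to 30 hearts and each P2 sample a pool of 15 hearts. At least 50000 cells were collected per fraction, and 10 ng of RNA was amplified and labeled. Each group had 4 microarrays, from 4 independent experiments, and 16 were measured in all. Values are given in the order of the sample numbers, 2, 3, 6 and 8 at E15.5 and 2, 3, 4 and 5 at P2.

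Connexins assemble into hemichannels, and hemichannels of neighboring cells dock to form channels that pass ions and small molecules. In the heart these channels carry the action potential from CM to CM, mostly at the intercalated discs. The isoform mix differs between chambers and is linked to conduction speed. Cx40 (*Gja5*) is known from the atria, the fast ventricular conduction system and arterial endothelium, Cx43 (*Gja1*) from working myocardium, Cx45 (*Gjc1*) from the early heart and the nodes, Cx30.2 (*Gjd3*) from the atrioventricular node, and Cx37 (*Gja4*) from endothelium.

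Each probe is a 60-base oligonucleotide, and the first 30 bases of all 9 are shown, 5′ to 3′ and without capitals, since each value below is a reading of 1 of these sequences.
Gja1 A_52_P174915: ctacacattaactcagaacttgtattctga
Gja3 A_55_P2171912: aaaccacccagtcaaacactgcaatggcca
Gja4 A_52_P117352: acccagcgccaagttgactttcgagcctcc
Gja5 A_52_P525317: ccgacactggcactaagactctctgttctg
Gja5 A_55_P2178753: caaataacagtgggcagttgaacagcagcc
Gja5 A_55_P2178748: tgtgtgctttatctgtaaatattgattgca
Gjb2 A_52_P382886: caagttgaaccattaccactatgccttatg
Gjc1 A_55_P2107362: gttgtgtcttccagatccagagaagaactg
Gjd3 A_55_P2167032: ggcggcagcggccacagcaaagcgtcgctg

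In mm9, the build of the scanner files, the *Gja1* probe lay at chr10:56109814-56109873, the *Gja3* probe at chr14:57654750-57654809 and the *Gjb2* probe at chr14:57717629-57717688. The *Gja4* probe lay at chr4:126988848-126988907, the *Gjc1* probe at chr11:102661010-102661069 and the *Gjd3* probe at chr11:98843494-98843553. The brightest *Gja5* probe, A_52_P525317, lay at chr3:96857349-96857408. A_55_P2178753 lay 21013 bases upstream of it, at chr3:96836336-96836395, and A_55_P2178748 lay 23931 bases downstream, at chr3:96881280-96881339. The *Gja1* and *Gja5* probes lay on the plus strand and the others on the minus strand. Over the 60 bases, the *Gjd3* probe had the highest GC share of the 9, 70%, and the *Gja1* and *Gjc1* probes had the lowest, 35%.

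Values are normalized signals on a linear scale, and a probe counted as detected on an array where the scanner software marked it well above background. Where genes of a list are counted as detected, this means on all 4 arrays of at least 1 group. Of the 9 probes, 7 were detected on all 4 arrays of at least 1 group, and these covered 6 of the 7 genes. *Gja1*, *Gja3*, *Gjc1* and the brightest *Gja5* probe were detected on all 16 arrays. *Gjb2* and the *Gja5* probe A_55_P2178748 were detected on none of the 16. No connexin spot was saturated. Between 35.7% and 46.5% of all probes were well above background on an array. The CM label was checked with 8 genes of the contractile apparatus, calcium release and cardiac transcription, among them *Tnnt2* (cardiac troponin T), *Actn2* and *Ryr2*. All 8 were detected on all 16 arrays.

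In the low and high ITGA6 fractions the connexins did not move as a family. *Gja5* and *Gjd3* were higher in the high fraction at both stages, *Gja4* was called higher in EH and was not called at P2, *Gja1* was lower in the high fraction at P2, and *Gjc1* stayed within 1.26-fold. A probe was called where limma's Benjamini-Hochberg adjusted p was at most 0.05 and the change at least 3-fold. In EH against EL, 4 of the 9 probes were called higher and 0 lower, beside 1.17% and 0.454% of all probes. In PH against PL, 3 were called higher and 0 lower, beside 1.73% and 0.916%. The median log2 fold-change of the 9 probes was 0.26 at E15.5 and 0.57 at P2, against -0.02 and -0.01 over all probes. With the p-value alone, 4 probes passed upward and 0 downward at E15.5, beside 4.27% and 3.83% of all probes, and 4 upward and 1 downward at P2, beside 6.15% and 5.41%. In these bulk fractions, fewer cells of a type and less RNA per cell cannot be told apart.

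**Figure D1:**
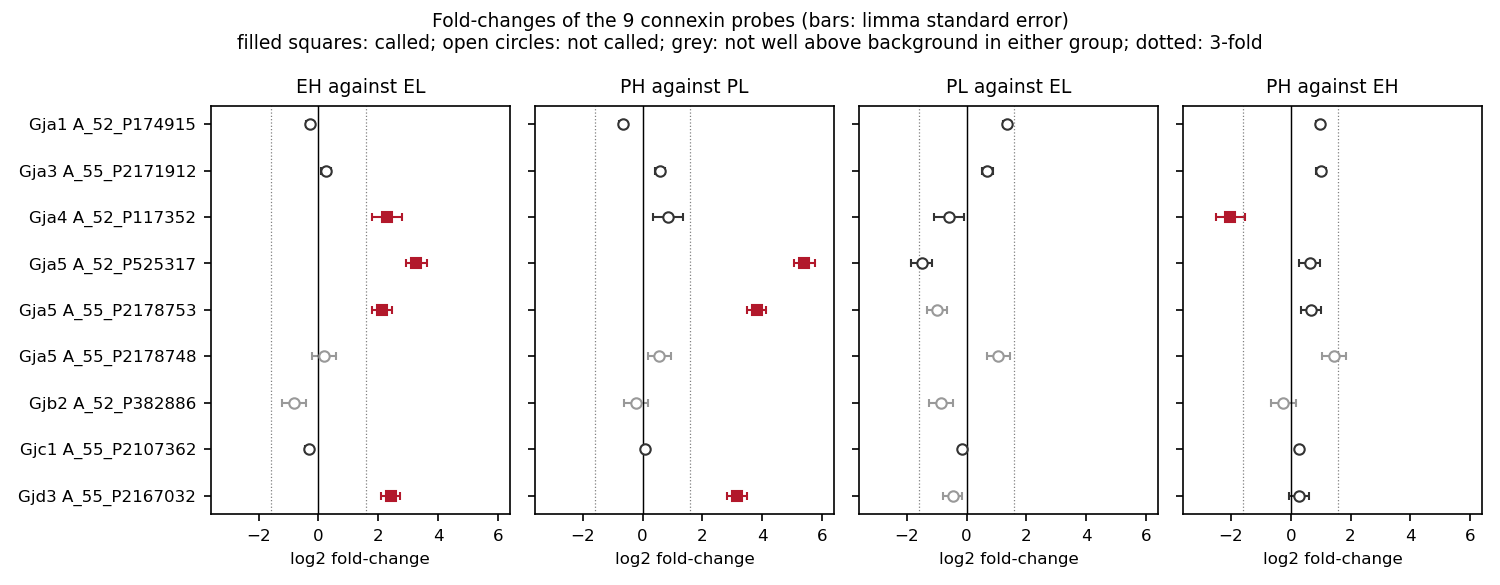
Log2 fold-changes (x axis) of the 9 connexin probes (y axis) in 4 comparisons, with limma standard errors as bars. Filled squares are called, open circles are not called, grey marks probes not well above background in either group, and dotted lines mark 3-fold. The brightest Gja5 probe lies farthest to the right, at 3.27 for EH against EL and 5.40 for PH against PL.

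*Gja5* was far higher in the high fraction at both stages. In EL its brightest probe, A_52_P525317, read 715, 1098, 922 and 926, and in EH 5911, 11316, 9794 and 8911. In PL the signal was 154, 439, 645 and 239, and in PH 11845, 13970.4, 14012 and 14439. Every array of the high fraction lay above every array of the low fraction at both stages, and the low groups did not overlap each other either. Arrays of both groups did not overlap, with the high fraction above, for 4 of the 9 probes at E15.5 (7.02% of all probes) and 3 at P2 (6.54%). The log2 fold-change was 3.27 (SE 0.353, adjusted p = 3.99e-05, limma) at E15.5 and 5.40 (adjusted p = 1.77e-07) at P2. Within the larger and the smaller E15.5 slide the log2 fold-change was 3.37 (adjusted p = 0.00405) and 3.28, the smaller without a test. The exact permutation p was 0.0286 at each stage, the smallest that 4 against 4 arrays allow. It rests on all 70 splits of 8 arrays and ignores the pairing of the E15.5 arrays by sample number.

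The difference between the stages was itself called for this *Gja5* probe, as the only one of the 9, beside 0.602% of all probes in this direction. With the p-value alone, too, 1 probe passed upward and 0 downward (1.81% and 1.35% of all probes). The fold-change at P2 exceeded that at E15.5 by 2.13 on the log2 scale (SE 0.499, limma adjusted p = 0.0330). This call was not stable. Leaving out any 1 of 10 arrays (EL 3, 6 or 8, EH 2, 6 or 8, PL 5, or PH 3, 4 or 5) gave adjusted p-values up to 0.0748, and taking the slide as a block gave 2.06 with an adjusted p of 0.0551. Without EH 6 and EH 8 the adjusted p was 0.105. With the median over the 3 *Gja5* probes the difference was 0.71 (adjusted p = 0.586). The direction held under each of these settings.

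The 4 PL arrays differed more among themselves in *Gja5*, on the log2 scale, than the arrays of any other group. The order of these arrays, PL 4 above PL 3 above PL 5 above PL 2, was also that of the summed signal of 10 atrial markers, which was 19974, 47940.3, 90084 and 26405 in samples 2, 3, 4 and 5. The brightest gene of that list in PL was *Myl4*, an atrial myosin light chain. *Nr2f2*, *Bmp10* and *Kcnj3* were well above background on no PL array. The sums were 169459 to 194265 in EL, 714478 to 733770.0 in EH and 902685 to 1016130.0 in PH. *Myl4* alone gave 159244 ± 8970 (SD, n = 4) in EL, where it made up most of the sum, and 289566 ± 5579 in EH. Without PL 3 and PL 4, a choice made after seeing the data, *Gja5* in PH against PL came to 6.14 on the log2 scale and the difference between the stages to 2.87 (limma adjusted p = 0.000727). The part of atrial cells in the PL values was not tested.

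Endothelial cells also express *Gja5*. Of 14 endothelial and arterial markers, 9 were called higher in EH than in EL and 0 were called between PH and PL. At P2 their summed signal was 864, 918, 1821 and 2128 in PL and 1429, 1601, 1535 and 2194 in PH. Of the 14, 3 were well above background on at least 1 PL array and 5 on at least 1 PH array. *Egfl7* and *Kdr* were detected on all 8. *Egfl7*, the brightest in PH, was at 542 ± 80.8 (SD, n = 4) in PL and 978 ± 97.2 in PH. *Kdr*, the brightest in PL, was at 808 ± 601 in PL and 619 ± 266 in PH. *Cdh5*, *Tek*, *Tie1* and *Emcn* were detected on none of the 8. Without EH 6 and EH 8, the 2 arrays richest in these markers, the log2 fold-change of *Gja5* at E15.5 was 3.18 (limma adjusted p = 0.00189). The part of endothelial cells in the *Gja5* signal was not tested.

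Of the 3 probes of *Gja5*, 2 were called at both stages and 1 at neither. Whether the third, A_55_P2178748, reads a *Gja5* transcript was not tested. A_55_P2178753, near the 5′ end of the transcript, read 12.6, 7.26, 15.1 and 8.14 in EL and 50.3, 50.6, 46.7 and 34.4 in EH. It read 3.45, 6.0, 9.84 and 3.43 in PL and 55.3, 82.1, 66.3 and 90.8 in PH. It was thus detected on all 8 arrays of the high fractions and on none of the 8 arrays of the low fractions. Since the low groups have only a bound, the change was at least 2.76-fold in EH (log2 fold-change 2.13, limma adjusted p = 0.000864) and at least 3.72-fold in PH (3.81, adjusted p = 2.66e-06). Such a bound sets the bright group against, on each array of the dim group, the lowest signal of any detected probe or the probe's own signal if higher. The limit of detection differed between probes, so no such bound is a guaranteed minimum. In PL 2, *Pecam1* was not detected at 34.6, whereas *Panx2* was detected at 27.5. The difference between the stages did not pass (adjusted p = 0.0801), and its size is not given because the low groups lie below background. This difference was called with only detected probes tested, without PL 4, and without PL 3 and PL 4. Over all settings its lowest limma adjusted p was 0.00778. With normexp background correction the fold-changes were 0.64 and 1.16 on the log2 scale, short of 3-fold. With dim signals set to the background limit, that at E15.5 was 1.46, again short of 3-fold, and that at P2 was 1.89. Over the 16 arrays its log2 signal had a Pearson r of 0.974 with that of the brightest probe, a description of arrays that fall into groups.

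The third probe, A_55_P2178748, was designed on a separate cDNA clone and stayed below background throughout. It read 3.97 to 11.8 at E15.5 and 5.16 to 22.0 at P2. No change is given for it, because both sides lie below background. The limma adjusted p was 0.896 in EH against EL, 0.521 in PH against PL and 0.0210 in PH against EH, and its r with the brightest probe was 0.183.

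**Figure D2:**
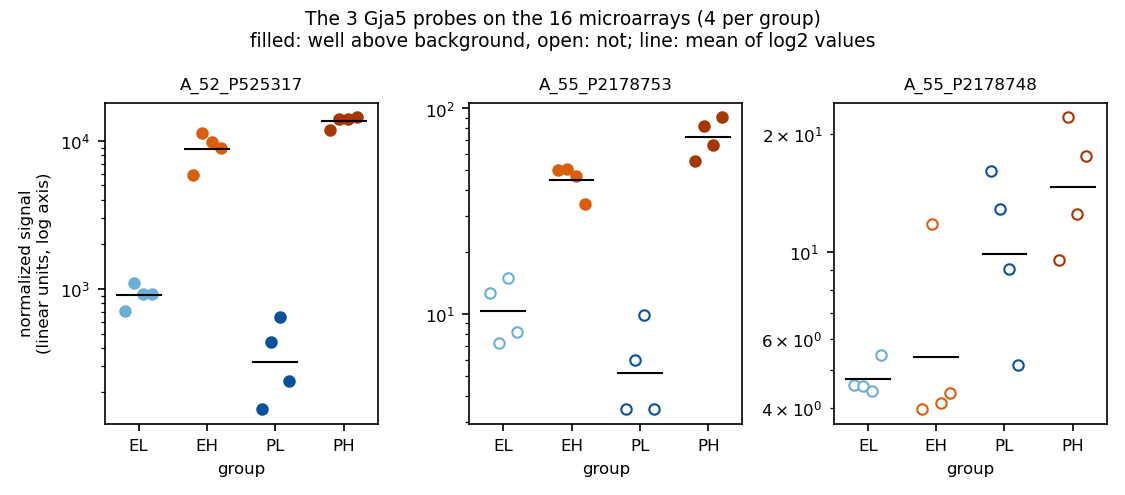
Normalized signal (y axis, linear units on a log axis, each panel with its own range) of the 3 Gja5 probes in the 4 groups (x axis). Each point is 1 array, filled where the probe was well above background and open where not, and lines are means of log2 values. A_52_P525317 and A_55_P2178753 are high in EH and PH, at up to 14439 and 90.8, and A_55_P2178748 is open on all 16 arrays.

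The sequence before the *Gja5* start is shown because A_55_P2178753 matches the RefSeq sequence from base 12 of the gene on, which places that probe beside the promoter. Only its first 39 bases could be compared, because the sequence searched ended 50 bases after the gene start. Another reason is that several factors known to act on *Gja5* differed between the fractions. The letters below are the 250 bases upstream of the RefSeq gene start, GRCm38.p6 chr3:97032152-97032401, plus strand, with the match to an SP1 motif in capitals.
Gja5 upstream: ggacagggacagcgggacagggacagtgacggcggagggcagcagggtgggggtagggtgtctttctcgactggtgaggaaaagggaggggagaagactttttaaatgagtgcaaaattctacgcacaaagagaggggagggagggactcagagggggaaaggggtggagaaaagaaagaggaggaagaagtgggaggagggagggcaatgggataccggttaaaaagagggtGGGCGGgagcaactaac

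Across both strands of the 250 bases, 6 motifs were searched. The SP1 motif GGGCGG occurred 1 time before *Gja5*, starting 17 bases before the gene start, and is found in 32.7% of the upstream windows of all 32851 RefSeq entries. The T-box motif GGTGTGA (3.33% of all windows), the NKX2-5 motif TNAAGTG (10.1%), the GATA motif AGATAA (9.99%), the nuclear receptor motif AGGTCA (14%) and the HEY E-box CACGTG (6.02%) had no match in these letters. Windows were matched for 5 of the 7 genes. *Gja4* held GGGCGG 79 bases before its start, *Gja1* held AGATAA on the minus strand at 135 bases, *Gjb2* held GGGCGG at 211 and 126 bases and AGGTCA at 191 bases, and *Gja3* held none of the 6.

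*Gjd3*, which encodes a connexin of low conductance known from the atrioventricular node, followed the same fractions as *Gja5* at a low signal. It read 11.8, 4.87, 11.4 and 6.96 in EL and 56.8, 46.4, 38.8 and 35.8 in EH. PL arrays gave 6.29, 10.4, 4.22 and 4.55, and PH arrays 39.1, 60.5, 49.8 and 66.7. It was detected on all 8 arrays of the high fractions and on none of the low fractions, and the groups did not overlap at either stage. The change was at least 2.69-fold at E15.5 (log2 fold-change 2.41, SE 0.326, limma adjusted p = 0.000269) and at least 2.72-fold at P2 (3.15, adjusted p = 1.32e-05). The difference between the stages did not pass (adjusted p = 0.614), and its size is not given because the low groups lie below background. With normexp background correction, whose offset draws dim signals together, the log2 fold-changes of *Gjd3* fell to 0.45 and 0.63 and were no longer 3-fold, with adjusted p-values of 0.000388 and 5.26e-06. With dim signals set to the background limit they were 1.43 and 1.44, again short of 3-fold (adjusted p = 6.03e-05 and 3.06e-05). Of 12 markers of pacemaker and conduction tissue, 7 were detected on all 4 arrays of at least 1 group, with 3 called higher in EH, and 2 called higher and 1 lower in PH. *Vsnl1*, a calcium sensor, was called higher at both stages (at least 9.27-fold and 8.04-fold), *Tbx3*, a conduction system repressor detected on all 16 arrays, had 0.67 and -0.70, and *Hcn4*, the main pacemaker channel, was well above background on none of the 16. The brightest of the 12 were *Smoc2* in EL and EH and *Cacna1g*, a T-type calcium channel, in PL and PH. The summed signal of the 12 was 1146 to 1422 in EL, 1463 to 1823 in EH, 2022 to 3187 in PL and 1401 to 2046 in PH. The part of such cells in the *Gjd3* signal was not tested.

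*Gja4* was called at E15.5. It read 26.0, 15.5, 28.0 and 19.9 in EL, where 2 of the 4 arrays were well above background, and 95.1, 60.1, 178 and 129 in EH, where all 4 were. Every EH array lay above every EL array. The log2 fold-change was 2.30 (SE 0.494, adjusted p = 0.00918, limma), or 4.91-fold. At P2 it read 17.8, 21.4, 4.28 and 27.5 in PL and 22.6, 21.3, 30.5 and 32.8 in PH, with 1 and 3 arrays well above background. These groups overlapped, and the log2 fold-change was 0.86 (adjusted p = 0.397). Without PL 4, the dimmest PL array, it was 0.27 (limma adjusted p = 0.808). The difference between the stages did not pass, at -1.44 (SE 0.698, adjusted p = 0.444). It was called with dim signals set to the background limit, at -2.01 (adjusted p = 0.00496), and without PL 4, at -2.03 (adjusted p = 0.0290).

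Endothelial markers moved with *Gja4*. The summed signal of the 14 markers was 5191, 4316, 11075 and 10591 in EH 2, 3, 6 and 8, and 2096 to 2360.3 in EL. Within EH the arrays with more endothelial signal were also those with more *Gja4*, in the order of samples 6, 8, 2 and 3 for both. *Egfl7* alone made up most of the sum on each EH array. It read 3966, 2861, 7575 and 7740 in EH 2, 3, 6 and 8, with EH 8 above EH 6. The brightest marker in EH was *Egfl7*, at 5536 ± 2493 (SD, n = 4). *Kdr*, the brightest in EL, was at 1037 ± 74.8 there and 834 ± 197 in EH. *Cdh5*, the endothelial cadherin, was not well above background on any EL array and read 77.3, 46.0, 391 and 333 in EH. In EL, 8 of the 14 were well above background on no array, *Pecam1*, *Tie1* and *Emcn* among them. In EH, each of the 14 was well above background on at least 1 array.

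Leaving out 1 array at a time kept *Gja4* called, at log2 fold-changes of 2.05 to 2.57. Without EH 6 and EH 8, a choice made after seeing the data, it was 1.80 (limma adjusted p = 0.144). Within the larger E15.5 slide, with 5 arrays, it was 1.99 (adjusted p = 0.173), and within the smaller, with 3 arrays and no test, 3.1. With normexp background correction it was 0.94. Leukocyte markers were also highest in EH 6, with a summed signal of 9230.4 for 8 genes against 958 to 1853 on the other EH arrays. *Csf1r*, a macrophage receptor, was the brightest of them in EH. The part of endothelial cells or leukocytes in the *Gja4* signal was not tested.

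**Figure D3:**
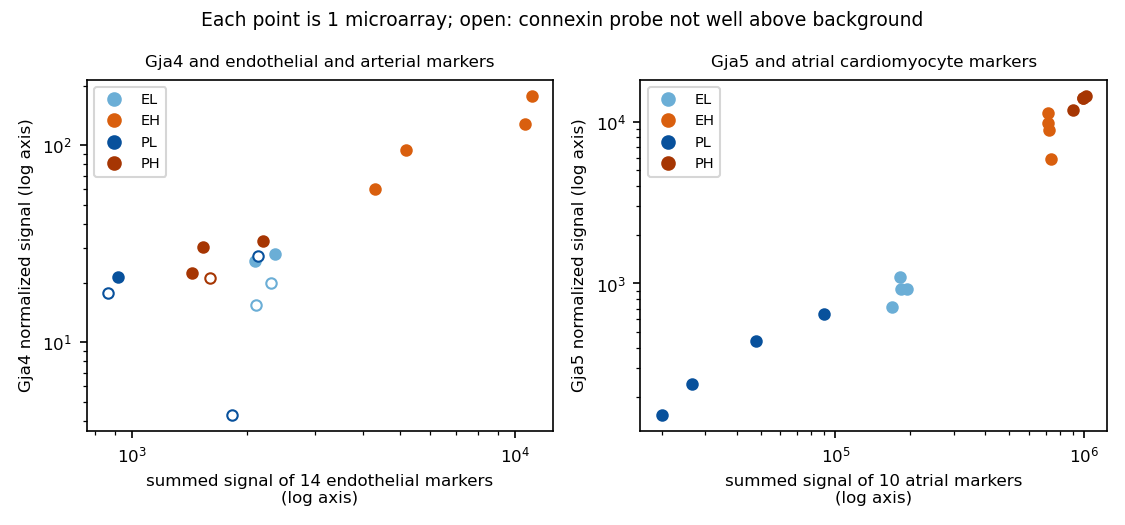
Left, Gja4 signal (y axis) against the summed signal of 14 endothelial markers (x axis). Right, signal of the brightest Gja5 probe (y axis) against the summed signal of 10 atrial markers (x axis). All axes are log axes in linear signal units, each point is 1 array colored by group, and open points are not well above background. The 4 EH arrays spread from 4316 to 11075 in endothelial signal and from 60.1 to 178 in Gja4, and the 4 PL arrays from 19974 to 90084 in atrial signal and from 154 to 645 in Gja5.

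*Gja1*, the connexin of working myocardium, ran the other way. It read 219, 224, 271 and 228 in EL and 175, 192, 204 and 199.6 in EH. In PL it read 688, 651, 474 and 591, and in PH 417, 313, 407 and 373. The low fraction lay above the high fraction on every array at both stages. Groups were separated downward for 2 of the 9 probes at E15.5, *Gja1* and *Gjc1* (9.08% of all probes), and for 1 at P2, *Gja1* (6.27%). The difference at E15.5 was 1.22-fold, with a log2 fold-change of -0.29 (SE 0.123, limma adjusted p = 0.231). At P2 it was 1.59-fold, with -0.67 (adjusted p = 0.00200), short of 3-fold. The difference between the stages was -0.38 (SE 0.174, adjusted p = 0.393).

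*Gjc1*, an early cardiac connexin, did not pass the main test at either stage. It read 903, 761, 721 and 701 in EL and 671, 623, 586 and 565 in EH, without overlap. In PL it read 773, 632, 771 and 616, and in PH 702, 678, 780.5 and 777, with overlap. The log2 fold-change was -0.33 (SE 0.103, adjusted p = 0.0705, limma) at E15.5 and 0.08 (adjusted p = 0.805) at P2. With the sample number as a block at E15.5, where the numbers pair the fractions, the adjusted p was 0.0462 at the same 1.26-fold. Over all alternative settings at E15.5 the adjusted p ran from 0.0220 to 0.425, on both sides of the limit.

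*Gja3*, known mostly as a lens connexin, was detected on every array. It read 183, 202, 217 and 162 in EL and 244, 243, 222 and 200.4 in EH. At P2 the readings were 232, 328, 411 and 287 in PL, and 402, 593, 482 and 383 in PH. The groups overlapped at both stages. The log2 fold-change was 0.26 (SE 0.173, adjusted p = 0.523, limma) at E15.5 and 0.57 (adjusted p = 0.0486) at P2, where 1.49-fold missed the fold limit. The adjusted p at P2 ran from 0.0113 to 0.150 over the alternative settings, so that this value lay on both sides of the limit.

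*Gjb2*, an epithelial connexin, was well above background on none of the 16 arrays, with readings of 3.66 to 18.9. No change is given for it, and the limma adjusted p was 0.319 at E15.5 and 0.933 at P2.

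**Figure D4:**
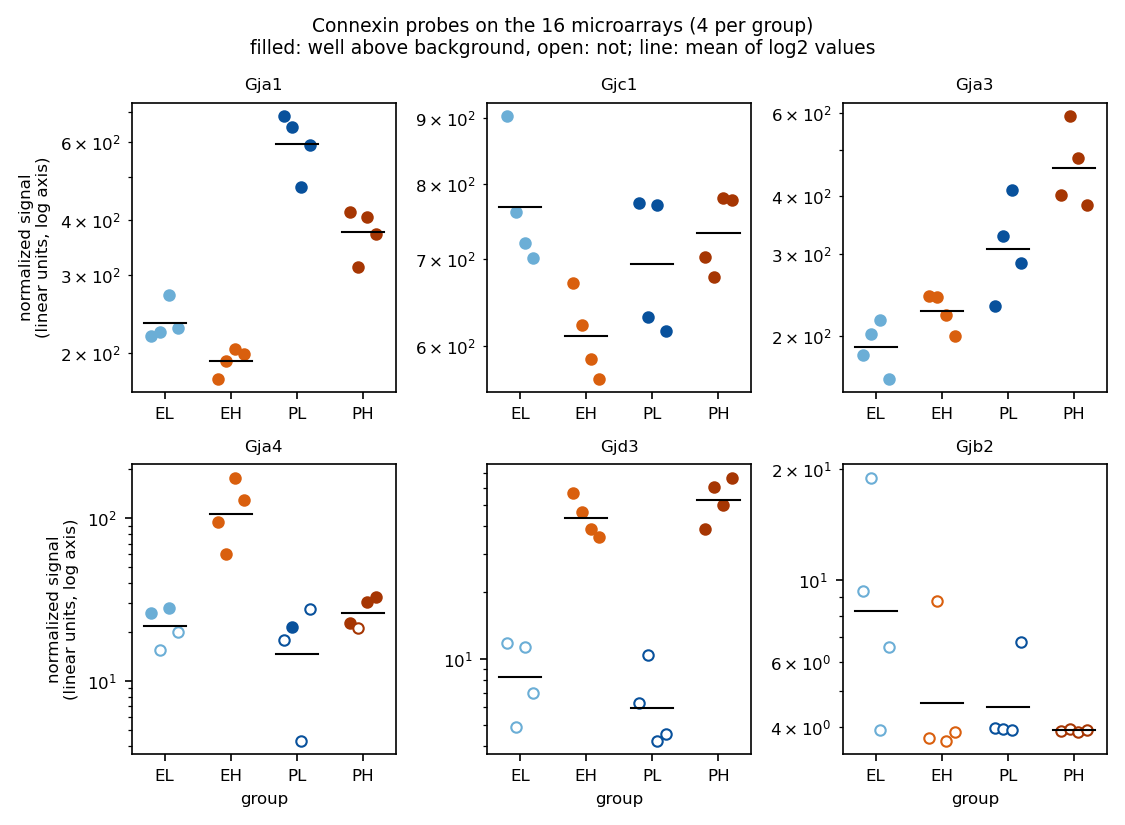
Normalized signal (y axis, linear units on a log axis, each panel with its own range) of the 6 connexin genes other than Gja5 in the 4 groups (x axis). Each point is 1 array, filled where well above background and open where not, and lines are means of log2 values. Gja1 is lower in the high fraction at both stages, Gjd3 is filled only in EH and PH, Gja4 peaks at 178 in EH, and Gjb2 is open on all 16 arrays.

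Between the stages, *Gja1* and *Gja3* were higher at P2 in both fractions. In PL against EL, 2 probes passed the p-value alone upward and 2 downward (9.70% and 10.0% of all probes), 1 of the latter the *Gja5* probe A_55_P2178753, below background in both groups, and groups did not overlap upward for 2 and downward for 1 (10.4% and 10.5%). In PH against EH, 3 passed upward and 1 downward (9.12% and 8.37%), 1 of the former the *Gja5* probe A_55_P2178748, below background on all arrays, and groups did not overlap upward for 5 and downward for 1 (14.9% and 9.54%). *Gja1* was 2.54-fold higher in PL than in EL (log2 fold-change 1.34, limma adjusted p = 2.88e-06) and 1.95-fold higher in PH than in EH (0.96, adjusted p = 7.03e-05). *Gja3* was 1.62-fold higher in PL than in EL (0.70, adjusted p = 0.0102) and 2.02-fold higher in PH than in EH (1.01, adjusted p = 0.000804). Within PL, *Gja3* had the same order of arrays as the atrial marker sum, and without PL 3 and PL 4 its difference between PL and EL was 0.44 (adjusted p = 0.134). Neither reached 3-fold, and 0 of the 9 probes were called in PL against EL, beside 1.60% of all probes called higher and 2.15% lower. *Gja5* was 2.83-fold lower in PL than in EL (-1.50, adjusted p = 0.00699), and passed 3-fold without EL 2 (-1.62), without PL 3 (-1.66) or without PL 4 (-1.84). Without both PL 3 and PL 4, the PL arrays richest in atrial markers, *Gja5* was at -2.24 (limma adjusted p = 9.79e-05).

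In PH against EH, 0 probes were called higher and 1 lower, beside 1.30% and 2.10% of all probes. The probe was that of *Gja4*, 4.06-fold lower in PH (-2.02, limma adjusted p = 0.0103), and the call was lost without EH 6 and EH 8 (-1.52, adjusted p = 0.145). In the same comparison 11 of the 14 endothelial markers (median log2 fold-change -3.13) and 7 of 8 leukocyte markers were called lower. Their part in the *Gja4* difference was not tested. *Gja5* had all PH arrays above all EH arrays, at a log2 fold-change of 0.63 (adjusted p = 0.293). *Gjc1* had 0.27 (adjusted p = 0.104) and *Gjd3* 0.27 (adjusted p = 0.677). All P2 arrays lay on a slide of their own and the cells were enriched in another way than at E15.5, so stage, slide and enrichment cannot be told apart. Markers of other cell types moved between the stages as well. Of 9 fibroblast markers, 6 were called lower in PL than in EL and 8 lower in PH than in EH, and of 9 epicardial and epithelial markers 8 and 7. The median log2 fold-change of the 8 pan-CM genes was 0.65 in PL against EL and 0.33 in PH against EH. Their part in the connexin differences between the stages was not tested.

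For each detected connexin gene, the genes of most similar pattern were sought among 10555 genes detected on all 16 arrays, by Pearson r of log2 signal over the 16 arrays. These r describe arrays that share groups and slides. *Gja5* was most like *Myl7*, the atrial regulatory myosin light chain (r = 0.992), *Gpx3*, a secreted glutathione peroxidase (0.988), and 0610007N19Rik (0.984). *Myl7* read 1484, 4897, 10757 and 2088 in PL, the order of *Gja5* there. *Gjd3* was most like *Fam20c*, a secretory pathway kinase (0.970), *Ctsc* (0.966) and *Ap3s1* (0.964). *Gja4* was most like *Ier3* (0.908), *Nos3*, the endothelial nitric oxide synthase (0.907), and *Slc30a5* (0.901). The brightest probes of *Cdh5*, *Tie1*, *Emcn* and *Pecam1* were not detected on all 16 arrays and so were not searched. *Nos3* read 355, 250.2, 981 and 1013 in EH, and its r with *Gja4* was 0.963 within E15.5 and 0.671 within P2. Among the genes most like *Gja1* were *Timm17a*, a subunit of the mitochondrial import machinery (0.980), and *Slc25a12*, a mitochondrial carrier (0.980), with r of 0.851 and 0.766 within E15.5. Among the genes most like *Gja3* were *Pin4* (0.944) and *Rnpepl1* (0.940). *Gjc1* had the weakest likeness, to *Syncrip* (0.847), *Luzp1* (0.824) and *Lars* (0.775).

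Of 16 other connexin and pannexin genes with a probe, 4 were detected, and 1 was called higher in the high fraction at each stage, with 0 called lower. Pannexins form large-pore channels of single membranes and are related to the innexins. *Panx2* read 36.2, 32.3, 47.3 and 33.0 in EL and 145, 141, 109 and 122 in EH. In PL it read 27.5, 39.6, 17.5 and 24.6, and in PH 84.9, 126, 109 and 129. The groups did not overlap at either stage, with log2 fold-changes of 1.80 (limma adjusted p = 0.000110) and 2.08 (adjusted p = 1.59e-05). The connexin *Gjb1* was the least changed of the 4, with -0.30 (adjusted p = 0.707) at E15.5 and -0.34 (adjusted p = 0.637) at P2.

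*Panx1* was named after its values were seen. It read 448, 417, 492 and 453 in EL and 623, 667, 723 and 705 in EH. At P2 it read 184, 240.5, 232 and 243 in PL and 469, 727, 642 and 787 in PH. It was thus higher in the high fraction on every array, by 0.59 on the log2 scale at E15.5 (limma adjusted p = 0.0184) and 1.53 at P2 (adjusted p = 4.70e-06). The difference between the stages was 0.94 (adjusted p = 0.0189), and no value reached 3-fold.

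Gap junctions of CMs sit beside the adherens junctions and desmosomes of the intercalated disc. All 18 genes of such partner proteins were detected, and 0 were called in either fraction comparison. With the p-value alone, 0 were higher, 2 were lower in EH and 3 were lower in PH, and these 3 genes were named after their values were seen. *Cdh2*, N-cadherin, read 20549, 21357, 20734 and 18272 in EL and 13886, 15277, 13560.5 and 11812 in EH. Its log2 fold-change was -0.57 (limma adjusted p = 0.00127) at E15.5 and -0.77 (adjusted p = 5.80e-05) at P2. *Pkp2*, the desmosomal plakophilin 2, had -0.38 (adjusted p = 0.00128) and -0.69 (adjusted p = 3.72e-06), and *Lmo7* had -0.43 (adjusted p = 0.179) and -0.78 (adjusted p = 0.00696). *Cav3*, the muscle caveolin, and *Dsp*, desmoplakin, changed least, with -0.12 and -0.06 for *Cav3* and 0.01 and -0.15 for *Dsp*.

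**Figure D5:**
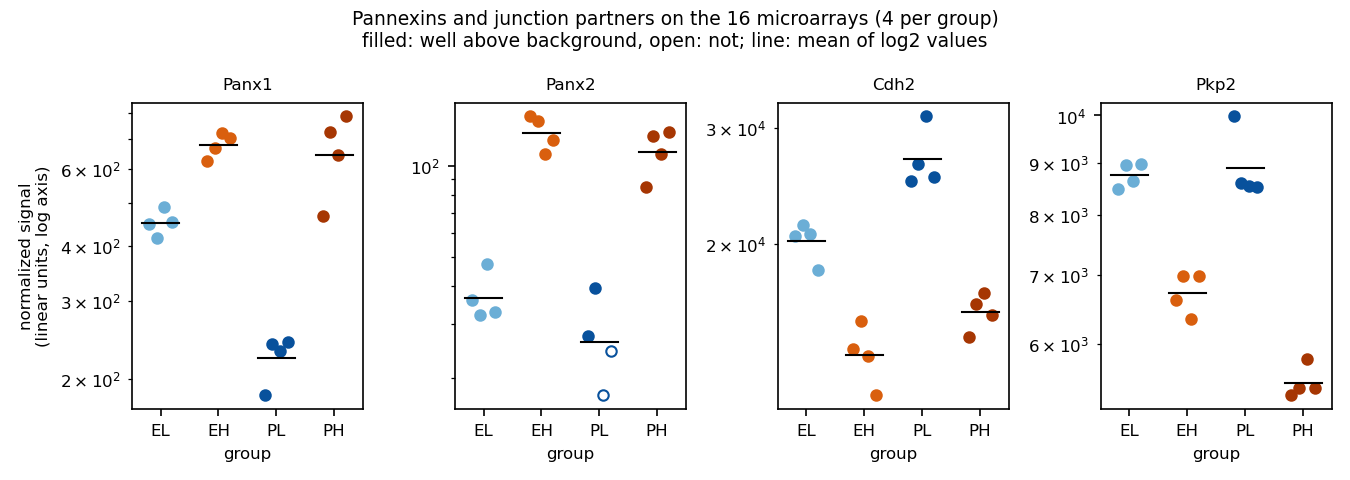
Normalized signal (y axis, linear units on a log axis, each panel with its own range) of Panx1, Panx2, Cdh2 and Pkp2 in the 4 groups (x axis). Each point is 1 array, filled where well above background and open where not, and lines are means of log2 values. Panx1 and Panx2 are higher and Cdh2 and Pkp2 lower in the high fraction, and the groups do not overlap within a stage.

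Of 16 transcriptional regulators known for effects on cardiac connexin genes or conduction, 15 were detected on all 4 arrays of at least 1 group. In EH against EL, 5 were called higher and 1 lower, and in PH against PL 5 higher and 3 lower. Among those called at both stages were *Nr2f2*, an atrial nuclear receptor (log2 fold-change 4.57 at E15.5), and *Hey2*, a ventricular repressor (-4.95 at E15.5). At P2 *Nr2f2* was below background in PL and *Hey2* in PH, so that *Nr2f2* was at least 58.2-fold higher and *Hey2* at least 13.2-fold lower in PH. *Irx3*, a factor of the ventricular conduction system known to act on *Gja5* and *Gja1*, had 0.91 at E15.5 and -3.97 at P2, with a difference between the stages of -4.88 (limma adjusted p = 2.02e-06). *Irx5* was below background in EL and PH, and was at least 2.06-fold higher in EH than in EL and at least 2.18-fold lower in PH than in PL. *Nkx2-5* and *Gata4* had the smallest differences of those detected on all 16 arrays, with 0.21 and 0.32 for *Nkx2-5* and -0.57 (adjusted p = 4.40e-05) and -0.02 for *Gata4*.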

How the data were processed

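RNA of 16 samples was hybridized to Agilent Whole Mouse Genome 8x60K microarrays. The authors deposited, per array, the scanner output of Agilent Feature Extraction 10.7.3.1 (per the submitters' processing notes and the file headers), with the background-subtracted processed signal intensity of each spot. Their deposited table of normalized log2 values was used as an alternative. The gene names are those of the array design, on mm9.

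From the deposited intensities, 59305 spots per array that were not controls were averaged to 55681 probes after outlier spots were dropped, which left 8 probes with a missing value on some array. As in the study's methods, quantile normalization and a log2 transformation followed. A mean per group was fitted to all probes of the 16 arrays with limma 3.58.1 (R 4.3.3), with contrasts within stages, between stages and for the difference between the stages. Calls required 3-fold or more and an adjusted p (Benjamini-Hochberg) not above 0.05. Detection was the software's mark for signals well above background. Arrays have no read depth, and 4 per group limit the precision. Python 3.11.15 with numpy 2.4.6, pandas 2.3.3 and matplotlib 3.10.9 was used for tables and plots, and the fit was tested on simulated data.

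Pairing by sample number was checked by correlating deviations from group means over 22244 probes. For same-numbered EL and EH arrays r was 0.256, 0.189, 0.450 and 0.379. Each exceeded 0.1, so the numbers pair E15.5 samples. The E15.5 arrays lay on 2 slides (EL 2, EL 8, EH 2, EH 3 and EH 8 on 1, EL 3, EL 6 and EH 6 on another) and all P2 arrays on another.

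All member probes were named, and so were the 3 genes most correlated with each detected member. The lists of other connexins, disc partners and regulators gave up to 4 genes with the largest called change and up to 2 with the smallest. Marker lists gave the brightest gene and up to 2 that were called. Other marker genes were named after their values were seen, such as defining markers below background. List genes were read by their brightest probe. The members and lists were chosen with earlier results of these data known. Alternatives were 75th-percentile scaling, normexp background correction with offset 50, the authors' values, only detected probes, a floor at the background limit, the median over a gene's probes, slide or sample number as a block, values within slides, the methods' test (ANOVA over the 4 groups with Tukey test) and leaving out each array. Another 2 were added after seeing the data (without the EH arrays richest in endothelial markers, without the PL arrays richest in atrial markers). No protein sequences were used here, and some genes that the naming rule gives are not reported here.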

Additional observations from a re-analysis of the deposited data

Results flagged for a closer look

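The 9 connexin probes in 4 groups gave 36 sets of 4 arrays, and an array was marked where it stood far from the other 3 of its group, which chance does for about 1 set in 20. The brightest *Gja5* probe read 11845 in PH 2 (11844.7 before rounding), below the 13970.4 to 14439 of the other PH arrays, and this array was well above background like the others. The *Gja5* probe A_55_P2178748 read 11.8 in EH 3, above the 3.97 to 4.37 of the other EH arrays, all below background. *Gjb2* read 8.77 in EH 3 against 3.66 to 3.86 on the other EH arrays, and 6.78 in PL 5 against 3.92 to 3.98 on the other PL arrays, again all below background. In these sets below background, the scanner software had put a substitute value on each of the other arrays. The rate of 1 set in 20 does not apply to such values. In addition, the fraction difference of the brightest *Gja5* probe differed between the stages, by 2.13 on the log2 scale (SE 0.499, limma adjusted p = 0.0330), with the limits given above.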

How the results depend on the processing

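Of 1133 values of single probes under an alternative, 1084 kept their direction and their side of the call, 24 lost a call, 11 gained one, 14 that were not called changed sign, and 0 called values changed sign. Of these 14, 2 were of *Gja4* in PL against EL, and all others were of probes below background in both groups compared. Among the others was the *Gja5* probe A_55_P2178753 in PL against EL. With dim signals set to the background limit it turned from -1.0 (limma adjusted p = 0.0489) to 0.26 (adjusted p = 0.226). The median of all probes under that setting was also 0.26, so this change of sign says nothing about the probe itself. With normexp background correction, 1 of the 9 probes stayed called higher in EH, 1 in PH, and 0 were called lower in PH than in EH. Its offset draws dim signals together. With dim signals set to the background limit, 2 probes were called higher in EH, 2 higher in PH than in PL and 1 lower in the difference between the stages. In that difference, 2 were called higher when only detected probes were tested, 0 with the slide as a block, 0 genes with the median over a gene's probes, 0 without EH 6 and EH 8, and 2 without PL 3 and PL 4. Without EH 6 and EH 8, 0 were called lower in PH than in EH, and without PL 3 and PL 4, 1 was called lower in PL than in EL. The cause of these changes was not tested.

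Leaving out 1 array at a time gave 0 to 2 probes called higher and 0 to 1 called lower in the difference between the stages, 0 to 1 called lower in PL than in EL, and 0 to 1 called higher in PH than in EH. The last was A_55_P2178748, below background on all arrays. Over all probes, 654 were called higher and 253 lower in EH, and 164 and 43 with normexp. For PH against PL these were 966 and 510, and 276 and 142 with normexp. For the difference between the stages they were 335 and 335, and 95 and 138. For PL against EL they were 891 and 1198, and 208 and 252. For PH against EH they were 723 and 1167, and 186 and 240. The floor gave 426 higher in EH, 572 and 302 in PH against PL, 549 and 599 in PL against EL, and 631 lower in PH than in EH. Scaling to the 75th percentile moved the median of all probes to -0.18 in EH against EL and -0.14 in PH against PL. The floor moved it to -0.47 in EH against EL and -0.13 in PH against PL. Between the stages, the floor moved it to 0.26 in PL against EL and 0.60 in PH against EH.

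With the sample number as a replicate block, 4 probes were called higher in EH and 3 in PH, as without it, and the block changed no connexin call. At P2, r between same-numbered arrays was 0.375, 0.176, -0.03 and 0.542, so that not all pairs passed the limit of 0.1, and P2 samples were not taken as paired. The limits are the 4 arrays per group, the dim signals of *Gja4*, *Gjd3* and 2 *Gja5* probes, and the slide that all P2 arrays share.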

Other observations

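Markers of further cell types were read beside the connexins. Of 9 smooth muscle and pericyte genes, 3 were called in EH against EL, with *Rgs5* and *Kcnj8* higher and *Cspg4* lower, and 4 in PH against PL, with *Cnn1* and *Tagln* higher and *Acta2* and *Cspg4* lower. Of 9 fibroblast genes, *Fbln1* was called higher in the high fraction at both stages (log2 fold-change 2.45 and 4.84), and *Postn* was called lower in PH. The list's median log2 fold-change was -0.81 at E15.5 and -0.31 at P2, and its summed signal was 13189 to 22734 in EL, 7344 to 12178 in EH, 800.0 to 1746 in PL and 4465 to 7573 in PH. *Fbln1* alone gave 5418 ± 1352 (SD, n = 4) in PH, where it made up most of the sum. Of 9 epicardial and epithelial genes, 0 were called at E15.5 and 2 at P2, *Wt1* and *Krt19*, both higher in PH. Of 8 leukocyte genes with a probe, *Cd68* and *Lyz2* were called higher in EH and 0 were called at P2. Of 5 erythroid genes with a probe, 0 were called at either stage by limma, and *Hba-a1*, an alpha globin, was the brightest in all 4 groups. Of 8 ventricular CM markers, 4 were called lower in EH and 8 in PH, and of 10 atrial CM markers 9 and 10 were called higher. Of 8 pan-CM genes, *Myh6* was called higher in EH and 0 were called at P2. Of 12 pacemaker and conduction genes, 3 were called higher in EH, and 2 higher and 1 lower in PH. The part of these cell types in the connexin values was not tested.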
